A study of Mus musculus with 24 samples.

Results

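Epiblast stem cells (EpiSCs) were compared with epiblast-like cells after 3 days of induction (day 3 EpiLCs), using 4 of the 24 arrays of the series: 2 unamplified arrays of EpiSCs and 2 of day 3 EpiLCs. Every sample was labelled as C57BL/6, without a stated genotype, transgene or sex. EpiLCs had been induced from embryonic stem cells (ESCs) kept feeder free in 2i+LIF, which combines kinase inhibitors with leukaemia inhibitory factor, and EpiSCs had been derived from the epiblast at embryonic day 5.75. The medium of the EpiSCs, any feeder layer under them and the number of lines are not stated in the labels. Unamplified arrays of ESCs and of day 1 and day 2 EpiLCs, 2 each, gave the course of induction, and PCR-amplified arrays of EpiSCs and day 2 EpiLCs (22 cycles from 5 ng of RNA, the amount in 500 cells, 2 arrays each) gave a choice of genes on other arrays. Replicates were labelled biological, but whether they were separate cultures is not stated, so each p-value reflects the spread between arrays, which may be technical.

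Naive ESCs, which resemble the preimplantation epiblast, pass through a formative state that resembles the epiblast just after implantation, and EpiLCs are the culture form of that state. EpiSCs are kept in a later, primed state, which depends on Activin/Nodal and FGF signals and resembles the epiblast near gastrulation, when cells start to form the primitive streak. Competence for the germ cell fate is known as a short-lived property of the formative state and is mostly lost in EpiSCs. The comparison asked whether the third day of induction brings EpiLCs closer to EpiSCs, and which genes still separate them.

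The RNA signal of 1 probe set per gene was used, as deposited, on a linear intensity scale. Of 18193 genes, 14934 exceeded the 40th percentile of the unamplified arrays (an intensity of 28.1, here called the filter level) on at least 2 of 12 arrays and were tested. Before taking log2, a floor of 4.2 was set, the table's 10th percentile. Differences are log2 ± standard error from limma (n = 2 arrays a group). A gene was called where the Benjamini-Hochberg adjusted p, over all tested genes, was under 0.05 and the difference was at least 1 on the log2 scale. Where the dimmer group had both arrays under the filter level, its fold was taken against this level and is written "at least". In these bulk samples fewer cells that express a gene and less RNA per cell cannot be told apart. Replicate arrays of ESCs, EpiLCs and EpiSCs correlated across genes at r between 0.986 and 0.991.

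Both cell types carried the general pluripotency factors. Pou5f1 (Oct4), the central factor of pluripotency, read 4772 and 5058 on the day 3 arrays and 3875 and 3602 on the EpiSC arrays, a difference of -0.40 ± 0.07 that did not reach the fold needed for a call. Sox2, its partner, read 2477 and 2462 at day 3 and 2982 and 3064 in EpiSCs, and Nanog, another core factor, read 1762 and 1908 at day 3 and 2711 and 2698 in EpiSCs. The 95% intervals of EpiSC minus day 3 were -0.56 to -0.23 for Pou5f1, 0.20 to 0.38 for Sox2 and 0.35 to 0.77 for Nanog, so all 3 differed by less than a fold of 2. None of 6 control genes was called, and 8806 of 14934 tested genes (59.0%) had an interval inside -1 to 1. The labelled cell types thus carried core pluripotency markers in both groups, whereas Fgf5 and Dnmt3b, markers of the primed and formative states, differed between them as described below.

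Over all genes, day 3 EpiLCs were on average no nearer to EpiSCs than day 2 EpiLCs, to within the spread between arrays. The RMS (root mean square) of the log2 differences of all tested genes, taken for each of 4 pairs of arrays, was 1.41 ± 0.0047 (SD) between ESCs and EpiSCs, 1.32 ± 0.0047 for day 1 EpiLCs, 1.14 ± 0.013 for day 2 and 1.14 ± 0.022 for day 3. The means of days 2 and 3 lay within each other's spread, and both days were nearer than ESCs and day 1. The 2 day 3 arrays fell on either side of day 2. Replicate 1 lay at 1.12 from both EpiSC arrays and replicate 2 at 1.16, against 1.13 to 1.15 for the day 2 pairs. The 4 pairs come from 2 arrays a group, so they are not independent. Replicates of one group differed by 0.307 to 0.371 on the same scale, least for day 2 and most for day 3. The distances to EpiSCs were not corrected for this unequal spread. From ESCs the distance went on growing, from 1.02 ± 0.0078 at day 2 to 1.09 ± 0.0075 at day 3. With 2 arrays against 2, an exact permutation test cannot give a p under 0.33, so these distances carry none.

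**Figure D1:**
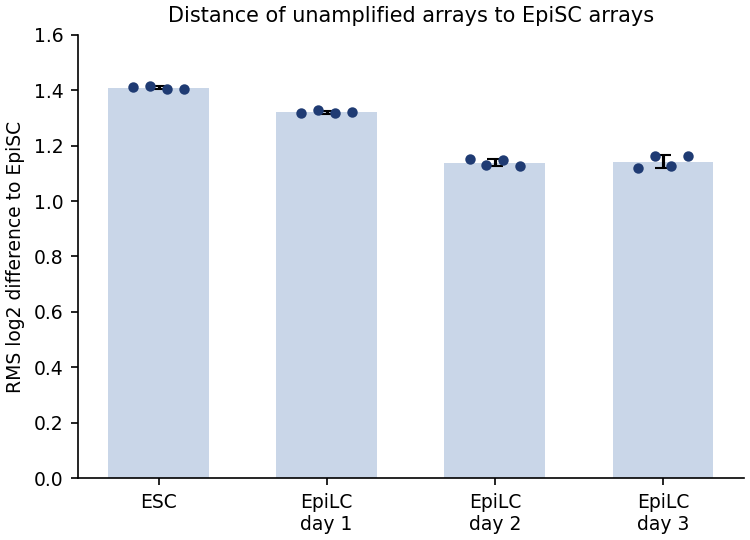
RMS log2 difference over 14934 genes between each EpiSC array and each array of ESCs and of EpiLCs at days 1, 2 and 3 (unamplified). Points are the 4 pairs of arrays, bars their mean and error bars the SD; the bars fall from 1.41 to 1.14 by day 2 and stay at 1.14 at day 3.

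Between EpiSCs and day 3 EpiLCs 3031 genes were called, 20.3% of those tested: 2047 were higher in EpiSCs (13.7%) and 984 lower (6.59%). The last 2 shares are the background for each count of list members below that compares EpiSCs with day 3. Against day 2 EpiLCs, 2819 were called (18.9%), and against day 1 EpiLCs 3587 (24%, of all tested genes 16.2% higher and 7.79% lower). These 3 comparisons share the EpiSC arrays, so the counts are given side by side and not tested against each other. Of the 2047 genes higher in EpiSCs, 562 had both day 3 arrays below the filter level, and 290 were below it on all 8 ESC and EpiLC arrays. Of the 984 lower genes, 401 had both EpiSC arrays below the level, and 157 of these 401 were above it on all 8 ESC and EpiLC arrays. In the array descriptions, EpiSC replicate 1 carries a code found on no ESC or EpiLC array, so its comparisons with them cross codes. The second replicates of both groups carry the same code, and within that code all 3031 calls kept their sign and 2854 were also at least 1 in size. Those arrays are part of the fit that made the calls, so this is no independent check; with the code as a block 3057 genes were called.

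To ask which genes moved toward EpiSCs during the third day, genes that separate EpiSCs from day 2 EpiLCs were chosen on the amplified arrays (1947 of 15608 called, 12.5%, with 8.61% higher in EpiSCs and 3.86% lower) and followed on the unamplified day 2 and day 3 arrays. The choice and the measurement share no array, though the labels do not say whether they share RNA. Day 3 against day 2 gave 636 calls (4.26%), 221 up (1.48%) and 415 down (2.78%). Of 1898 separating genes tested on both kinds of array, 121 changed toward EpiSCs (6.38%, Wilson 95% interval 5.36 to 7.56, counting error only), 42 changed away (2.21%) and 1735 were not called. This choice of genes uses the day 2 state itself, and a choice without it was made by EpiSC minus ESC (3639 called, 24.4%, with 15.5% higher and 8.87% lower). Of these 3639 genes, 195 changed toward EpiSCs (5.36%) and 133 away (3.65%) on the third day, against 770 toward (21.2%) and 85 away (2.34%) on the second day, when 1201 genes were called in all (8.04%, with 5.26% up and 2.78% down).

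The count of genes moving away rested partly on 1 array: without day 2 EpiLC replicate 2 it was 24, with 118 toward. The choice of genes also rested on single amplified arrays: without EpiSC replicate 1 it gave 3857 genes, 155 of them toward (4.02%) and 73 away, and without day 2 EpiLC replicate 1 or 2 it gave 1125 or 1135, with 88 or 83 toward. Seen from the other side, 595 of the genes called on the third day could be placed on both kinds of array. Of these, 121 (20.3%) moved in the EpiSC direction, 42 (7.06%) in the opposite one, and 432 were genes for which EpiSCs and day 2 EpiLCs were not called apart on amplified arrays. For the 121 genes that moved toward EpiSCs, the median difference in the EpiSC direction went from 2.59 (log2, EpiSC minus day 2) to 1.11 (EpiSC minus day 3), and 67 were still called in that direction at day 3. For the 42 that moved away it went from 2.02 to 3.43. For the 1735 without a call it was 1.53 at day 2 and 1.43 at day 3. These medians use the day 2 and day 3 arrays that defined the sets, and are a description only.

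**Figure D2:**
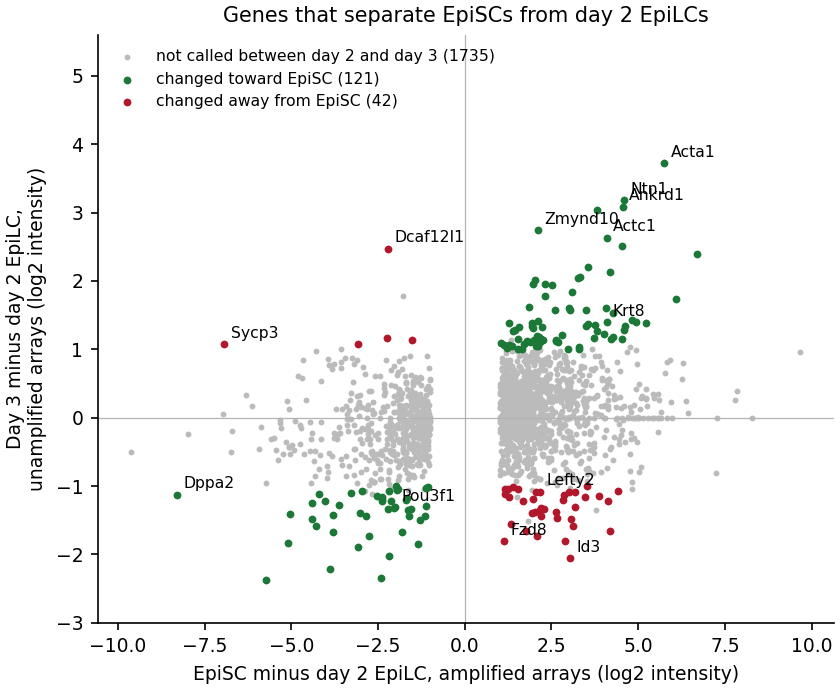
Each point is 1 of 1898 genes called between EpiSCs and day 2 EpiLCs on amplified arrays (x axis, log2), set against its change from day 2 to day 3 on unamplified arrays (y axis, log2). Green points (121) changed toward EpiSCs, red points (42) away, and grey points (1735) were not called.

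The 6 largest changes toward EpiSCs were those of Acta1, Actc1, Ntn1, Ankrd1, Tinagl1 and Zmynd10. Acta1, skeletal alpha-actin, read 35.2 and 60.6 at day 2, 605 and 612 at day 3 and 1470.3 and 1518 in EpiSCs; it rose by 3.72 ± 0.74 on the third day and at day 3 was not called apart from EpiSCs (1.30 ± 0.74, adjusted p = 0.17). The same gap was called with a floor at the 40th percentile (adjusted p = 0.00058) and in a fit of only the arrays compared (adjusted p = 1.8e-05). Actc1, cardiac alpha-actin, read 25.9 and 38.7, then 185 and 209, and 921 and 906 in EpiSCs. Ntn1 (netrin 1, a guidance ligand) read 7.41 and 11.1 at day 2, below the filter level, and 84.7 and 79.5 at day 3, with 499 and 572.5 in EpiSCs. All 3 were named for the size of this change, and in each the day 3 arrays lay between day 2 and EpiSCs. Ankrd1, a nuclear and sarcomeric cofactor that responds to mechanical load, was at 1 and 1.68 at day 2, 38.8 and 32.7 at day 3 and 461 and 462 in EpiSCs, so it had only just passed the filter level, and with the floor at the 40th percentile its rise was 0.34 and not called. Tinagl1, a matricellular protein, went from 10.3 and 7.89 to 66.9 and 82.8, with EpiSCs at 230.4 and 224.

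Zmynd10, a factor for the assembly of ciliary dyneins, also counted as moving toward EpiSCs, from 13.5 and 22.4 to 118 and 114. The unamplified EpiSC arrays, however, read 15.1 and 25.2, no higher than day 2, so for this gene the 2 kinds of array differ. Krt8, a keratin of simple epithelia, read 243 and 264 at day 2, 643 and 696 at day 3 and 5712 and 5265 in EpiSCs. Its partner Krt18 was chosen after its values were seen; it rose by 1.32 ± 0.09 on the third day, to 4339.8 and 4739, and EpiSCs were within a fold of 2 of that at 6397 and 6246. Tagln (transgelin, an actin-binding protein of smooth muscle and fibroblasts), also chosen after its values were seen, rose from 327 and 352 to 1331 and 1425, with EpiSCs at 3655 and 3678. The immediate early factors Fos and Junb, members of the AP-1 complex, rose on the third day by 1.39 ± 0.27 and 1.58 ± 0.18, and stayed 3.04 ± 0.27 and 1.74 ± 0.18 below EpiSCs.

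Against this stood genes for which the third day opened the gap. Id3, an inhibitor of helix-loop-helix factors and a target of BMP signalling, read 124 and 157 at day 2 and 33.8 and 33.3 at day 3, while EpiSCs read 842 and 874; the gap went from 2.62 ± 0.15 to 4.68 ± 0.15. Lefty1 and Lefty2, secreted inhibitors and targets of Nodal, did the same: Lefty1 read 1748 and 1688, then 775 and 854, against 4837 and 4527 in EpiSCs, and Lefty2 read 357 and 351, then 185 and 151, against 2132 and 2105. Within these values the day 3 arrays were the lowest and the EpiSC arrays the highest. Id3 was named for such a change, and Lefty1 and Lefty2 as members of the Nodal list. The fall of Lefty2 was 0.94 in size, and so not called, without day 3 EpiLC replicate 2. Fzd8, a WNT receptor, fell from 54.1 and 48.9 to 17 and 12.9, below the filter level, with EpiSCs at 95.8 and 117, and Lratd1 fell from 35.7 and 43.4 to 14.4 and 9.67, with EpiSCs at 82.4 and 84.5. With the floor at the 40th percentile these 2 falls were -0.87 and -0.49, and not called. Ttc30b and Parp14 were below the filter level on both days and are not described further. The one gene named by the rule that moved up and away was Dcaf12l1, which read 110.0 and 119 at day 2 and 673 and 597 at day 3 but 87 and 95.4 in EpiSCs.

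Fgf5, the best known marker of the postimplantation epiblast, belongs here too. It was at 1, the lowest value of the table, on both ESC arrays, read 857 and 899.5 at day 2, fell to 368 and 348 at day 3 (change -1.29 ± 0.15) and read 793 and 950.2 in EpiSCs. The day 2 EpiLCs thus lay at the EpiSC level (-0.02 ± 0.15), and the day 3 EpiLCs below it (1.28 ± 0.15, adjusted p = 2.7e-05). With the mean of its probe sets that last difference was 1.00, just short of a call. Of the 16 genes on the list for the postimplantation epiblast, 6 fell on the third day and 0 rose, where 2.78% of all tested genes fell and 1.48% rose. Among these falls, that of Fgf15 (-1.66) was not called whichever day 2 or day 3 array was omitted. The fall of Wnt8a (-1.37) was not called without day 2 replicate 1, day 2 replicate 2 or day 3 replicate 1. With the floor at the 40th percentile it was 0. Compared with day 2, 3 of the 16 were higher in EpiSCs (12.4% of all genes) and 4 lower (6.44%), and compared with day 3, 6 were higher (13.7%) and 2 lower (6.59%). Pou3f1 (Oct6), a POU factor of the same stage, also fell (-1.31 ± 0.09), from 3915 and 3637 to 1529 and 1517, but in its case this brought it to the EpiSC level of 1407 and 1418 (interval of the difference -0.31 to 0.10). Otx2, an early and broad epiblast factor, was lower in EpiSCs at 597 and 608 than at day 3 at 1319 and 1407, a call (-1.18 ± 0.40) that was lost whichever of the 4 arrays was omitted, at an adjusted p of 0.083 to 0.11.

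**Figure D3:**
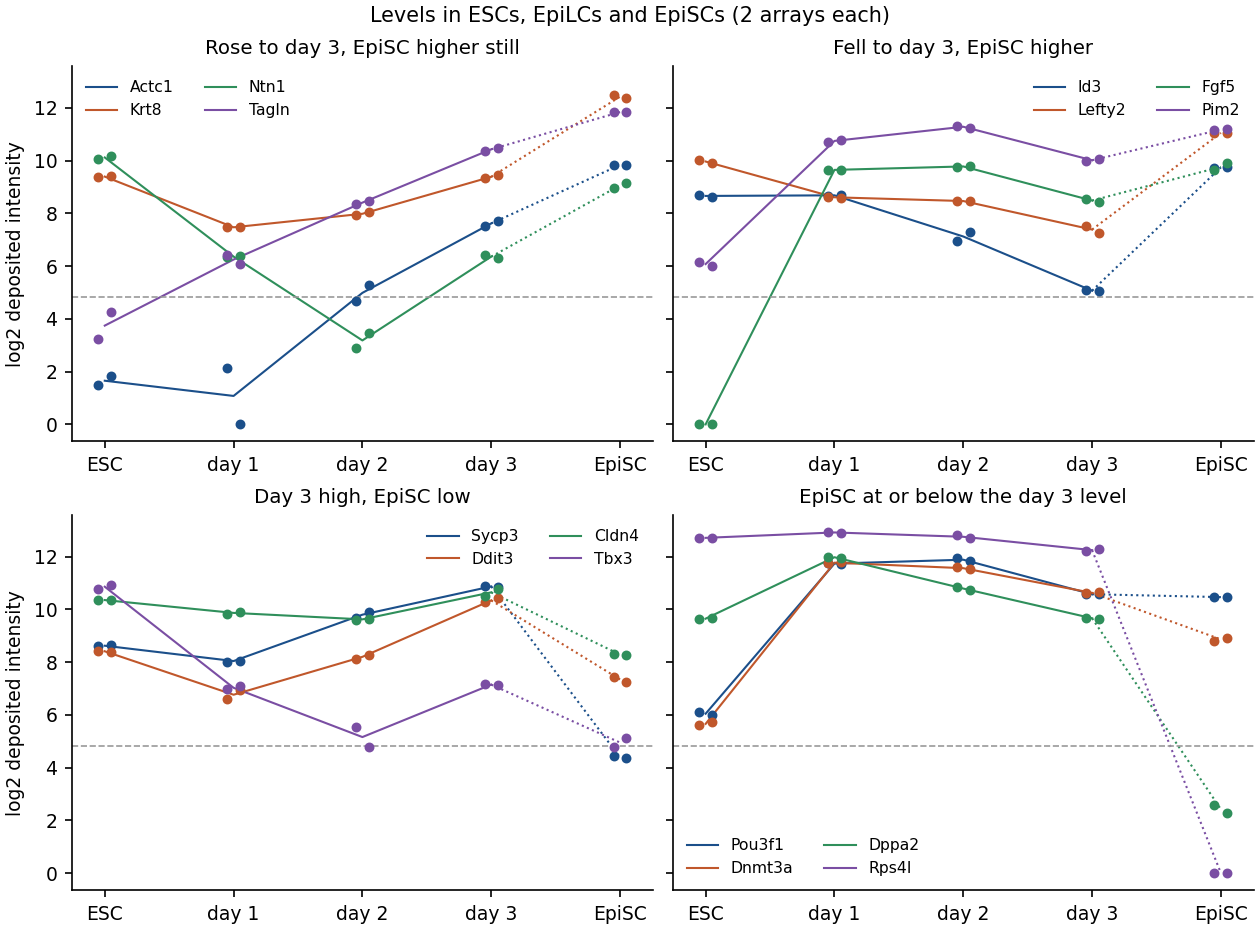
Log2 deposited intensity of 16 genes in ESCs, in EpiLCs at days 1 to 3 and in EpiSCs (points are single arrays, lines join the means, the dotted part leads to EpiSCs, and the dashed line is the filter level of 28.1). The panels show genes that rose to day 3 with EpiSCs higher still, genes that fell to day 3 with EpiSCs higher, genes high at day 3 and low in EpiSCs, and genes with EpiSCs at or below day 3.

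Among the largest differences that remained at day 3 were genes near background in EpiSCs. Rps4l, a gene for a ribosomal protein S4-like protein, read 4733 and 4977 at day 3 and 1 on both EpiSC arrays, at least 173-fold lower (-10.18 ± 0.11, adjusted p = 5.4e-13). Its relative Rps4x, which encodes the general form of the protein, read 12711 and 12393 at day 3 and 13318 and 12497 in EpiSCs, a difference of 0.04 ± 0.05. Dppa5a, an RNA-binding protein of naive cells, read 10003 and 10359.7 at day 3 and 44.1 and 41.6 in EpiSCs, 238-fold lower. Rps4l and Dppa5a were thus bright at day 3 and near or below the filter level in EpiSCs, and Rps4x was bright in both. Dppa2 and Dppa4, a pair of chromatin proteins that act together at developmental promoters, were both lower: Dppa2 read 819 and 802 at day 3 and 5.94 and 4.82 in EpiSCs, and Dppa4 3601 and 3983 at day 3 and 69.8 and 74.9 in EpiSCs. Utf1, a chromatin factor of pluripotent cells, was 6.38-fold lower in EpiSCs, and Foxd3, a forkhead factor, 2.36-fold lower. These 4 were the members of the 10 tested core pluripotency genes that were lower, and Sall4, a zinc-finger factor, the one that was higher (1.01 ± 0.06). That call was at the threshold, and was lost after median centring, without EpiSC replicate 2 and without day 3 EpiLC replicate 1. Over all tested genes 6.59% were lower and 13.7% higher.

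Genes of naive pluripotency differed unevenly. Of 17 tested genes on that list, 10 were lower in EpiSCs and 1 higher, with a median of -2.20 against 0.03 over all genes. Zfp42 (Rex1), a zinc-finger marker of naive cells, read 2158 and 2169.7 in ESCs, 506 and 474 at day 3 and 23 and 30.6 in EpiSCs. Esrrb, an orphan nuclear receptor, read 2079 and 2334 in ESCs, 222 and 176 at day 3 and 12.2 and 8.79 in EpiSCs, at least 7.03-fold lower than at day 3. Klf4, a Krüppel-like factor of naive cells, did not follow, at 4899.8 and 4838 in ESCs, 101 and 92.6 at day 3 and 111 and 117 in EpiSCs, with no call (0.23 ± 0.24). From day 2 to day 3, Tbx3 and Tfcp2l1, both chosen after their values were seen, rose. Tbx3 read 46 and 27.7 at day 2, 142 and 141 at day 3 and 27.6 and 34.6 in EpiSCs, and Tfcp2l1 102 and 112, then 265 and 283, against 76.2 and 75.4. For both, day 3 was above the EpiSC level. The rise of Tfcp2l1 was not called with the mean of probe sets (1.05, adjusted p = 0.22). Socs3, a feedback inhibitor of LIF/STAT signals, was the member that was higher in EpiSCs (2.89 ± 0.21).

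Of all lists examined, genes of the later germ cell had the lowest median. They act in meiosis and in the piRNA pathway that silences transposons, and in most somatic cells their promoters are methylated. Of 19 tested members, 15 were lower in EpiSCs than at day 3 and 0 higher, with a median of -4.54. With the floor raised to the 40th percentile the median was -2.57 and 13 were lower. For those 15 genes the day 3 arrays read 30.4 to 1874, and the EpiSC arrays 1 to 25.4, all below the filter level. The other 4 (Tex101, Tdrd9, Asz1 and Brdt) were not called, and Sycp2 and Tdrd1 were too dim to be tested. On amplified arrays, which share no array with these, 14 of 20 were lower in EpiSCs than in day 2 EpiLCs (3.86% of all genes) and 0 higher.

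**Figure D4:**
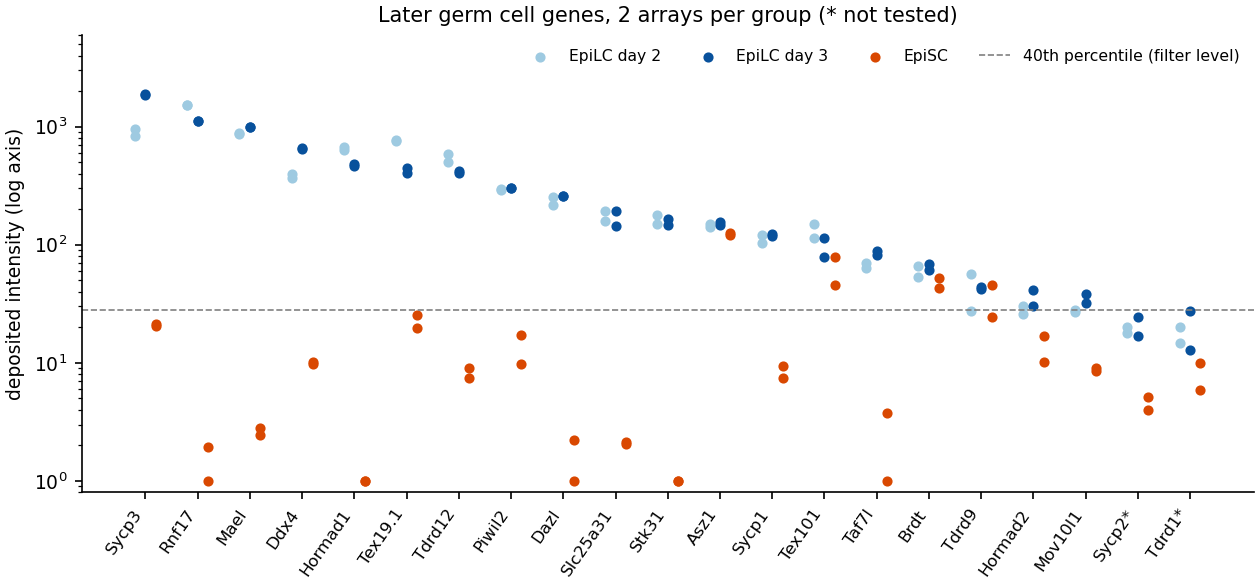
Deposited intensity (log axis) of 21 later germ cell genes on the 2 arrays each of day 2 EpiLCs, day 3 EpiLCs and EpiSCs; the dashed line is the filter level of 28.1. In 15 genes both EpiSC points lie below the line and both day 3 points above it, and Asz1, Tex101, Brdt and Tdrd9 are the tested genes where they do not separate this way.

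For 13 of the 15 lower genes RefSeq gives a promoter (build GRCm38.p6), and the 250 bases before the start were searched on both strands for CACGTG, a palindromic E-box, and for GCGGGAA or its reverse complement TTCCCGC, a form of the E2F site. These letters were chosen because a Polycomb complex with Mga and E2f6 is known to hold germ-line promoters silent through such sites. The 2 motifs do not overlap. CACGTG was found in 9 of the 13 (69.2%), in 2 of the 4 genes that were not called, in 9.28% of 11903 tested genes and in 6.02% of all 32851 windows of this length. It was in 12.3% of the 764 lower genes with a window and in 7.70% of 1585 higher ones. GCGGGAA was found in 3 of the 13 (23.1%), against 7.36% of tested genes and 3.82% of all windows. Both were found in Ddx4, Hormad1 and Sycp3, 3 of the 13, against 0.58% of tested genes and 0.338% of all windows. The Ddx4 window lies inside the annotated span of that gene (112598333 to 112652633), so it precedes a start other than the outermost one. A match is a description of letters, not of binding. The windows of these 3 and of Mael, one with the E-box alone, are shown 5′ to 3′ on the strand of the gene, ending next to the start, with the motifs in capitals.
Hormad1, chr3:95559427-95559676, plus strand: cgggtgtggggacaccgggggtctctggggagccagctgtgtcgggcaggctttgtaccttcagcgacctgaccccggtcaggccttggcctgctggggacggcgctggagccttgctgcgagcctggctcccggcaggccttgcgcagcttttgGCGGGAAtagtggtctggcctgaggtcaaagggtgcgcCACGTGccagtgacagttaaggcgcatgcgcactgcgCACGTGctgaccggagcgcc
Sycp3, chr10:88459337-88459586, plus strand: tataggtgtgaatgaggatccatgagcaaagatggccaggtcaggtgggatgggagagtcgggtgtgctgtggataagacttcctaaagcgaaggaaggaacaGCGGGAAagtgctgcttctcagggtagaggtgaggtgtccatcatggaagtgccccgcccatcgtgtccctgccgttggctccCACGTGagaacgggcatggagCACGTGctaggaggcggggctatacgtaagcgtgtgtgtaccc
Ddx4, chr13:112652311-112652560, minus strand: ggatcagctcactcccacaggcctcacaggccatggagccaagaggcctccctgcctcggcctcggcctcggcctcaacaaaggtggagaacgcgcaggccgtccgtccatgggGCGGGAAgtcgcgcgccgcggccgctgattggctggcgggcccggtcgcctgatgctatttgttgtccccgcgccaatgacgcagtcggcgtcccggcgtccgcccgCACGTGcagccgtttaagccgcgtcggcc
Mael, chr1:166238745-166238994, minus strand: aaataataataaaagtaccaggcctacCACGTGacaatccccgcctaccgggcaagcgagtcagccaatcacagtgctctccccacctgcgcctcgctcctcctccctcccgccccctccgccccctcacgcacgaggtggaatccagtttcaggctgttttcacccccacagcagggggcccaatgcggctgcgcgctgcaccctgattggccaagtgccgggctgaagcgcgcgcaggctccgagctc

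Hormad1, a protein of the meiotic chromosome axis, read 483 and 466 at day 3 and 1 on both EpiSC arrays, at least 16.9-fold lower. Sycp3, a part of the synaptonemal complex, rose on the third day, from 826 and 959 at day 2 to 1874 and 1864 at day 3 (change 1.07 ± 0.11), against 21.4 and 20.4 in EpiSCs. That rise was 0.96 in size, under the fold for a call, without day 2 EpiLC replicate 1. Ddx4 (Vasa), the RNA helicase of the germ line, read 369 and 394 at day 2, 664 and 652 at day 3 and 9.75 and 10.2 in EpiSCs. Mael, a piRNA factor, went from 33.6 and 44.2 in ESCs to 987 and 999 at day 3, and read 2.44 and 2.78 in EpiSCs. In all 4 genes the EpiSC arrays were below the filter level. Rnf17, a Tudor protein of germ cells, read 1113 and 1108 at day 3 and 1.94 and 1 in EpiSCs. Dazl, an RNA-binding protein of germ cells whose window holds neither motif, was also lower, at 259.6 and 257 at day 3 against 2.22 and 1 in EpiSCs.

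Among the 12 largest decreases outside that list were Morc1, Cyct, Sohlh2 and Fmr1nb. Morc1, needed for transposon silencing in male germ cells, read 561 and 555 at day 3 and 1 on both EpiSC arrays. Cyct, the cytochrome c of the testis, read 1463 and 1471 at day 3 and 12.6 and 12.4 in EpiSCs. Sohlh2, a helix-loop-helix factor of germ cells, read 386 and 393 at day 3 and 3.56 and 6.42 in EpiSCs. Fmr1nb was at least 32.5-fold lower in EpiSCs. In each of these genes both EpiSC arrays lay below the filter level.

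Early germ cell genes were split. Of 15 tested members, 6 were lower in EpiSCs and 4 higher, with a median of -0.56. Dppa3 (Stella), a maternal factor also made by germ cells, read 473 and 475 at day 3 and 4.59 and 11 in EpiSCs, and Tcl1 and Rhox5 were lower too (-2.89 ± 0.12 and -4.32 ± 0.05). Prdm1 (Blimp1), the repressor that starts germ cell specification, was instead higher in EpiSCs, at 74.3 and 86.6 against 23.6 and 23.6 at day 3. Tfap2c, its partner in that step, read 719 and 745 in EpiSCs against 305 and 243 at day 3. Prdm14, the third of these factors, was below the filter level on all 4 arrays. Its difference pointed the other way and was not called (-0.90). With the array code as a block in the limma fit it was called lower in EpiSCs (-1.03, adjusted p = 0.0053). Without day 3 EpiLC replicate 1 the difference was -1.22. The 2 specification factors above the filter level in EpiSCs were thus higher there, Prdm14 was not, and most genes of later germ cells were lower.

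All 3 genes of the machinery that lays down new DNA methylation were lower in EpiSCs by their brightest probe set. Dnmt3l, the cofactor without enzyme activity, read 984 and 1006 at day 3 and 1 on both EpiSC arrays, at least 35.4-fold lower. Dnmt3b read 9866 and 9442 at day 2, 6669 and 6312 at day 3 and 2881 and 2946 in EpiSCs (-1.16 ± 0.26). Dnmt3a read 1562 and 1595 at day 3 and 449.6 and 482 in EpiSCs (-1.76 ± 0.13), but its 5 probe sets ranged from -2.61 to 1.2, and their mean gave -0.62 and no call. None of the 8 tested genes of the methylation and demethylation list was higher in EpiSCs (13.7% over all genes). None was called between days 2 and 3 (4.26% over all genes), and for 8 genes both counts are near these shares. The summed intensity of the list was 20456 and 20117 at day 2 and 14513 and 14747 at day 3.

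**Figure D5:**
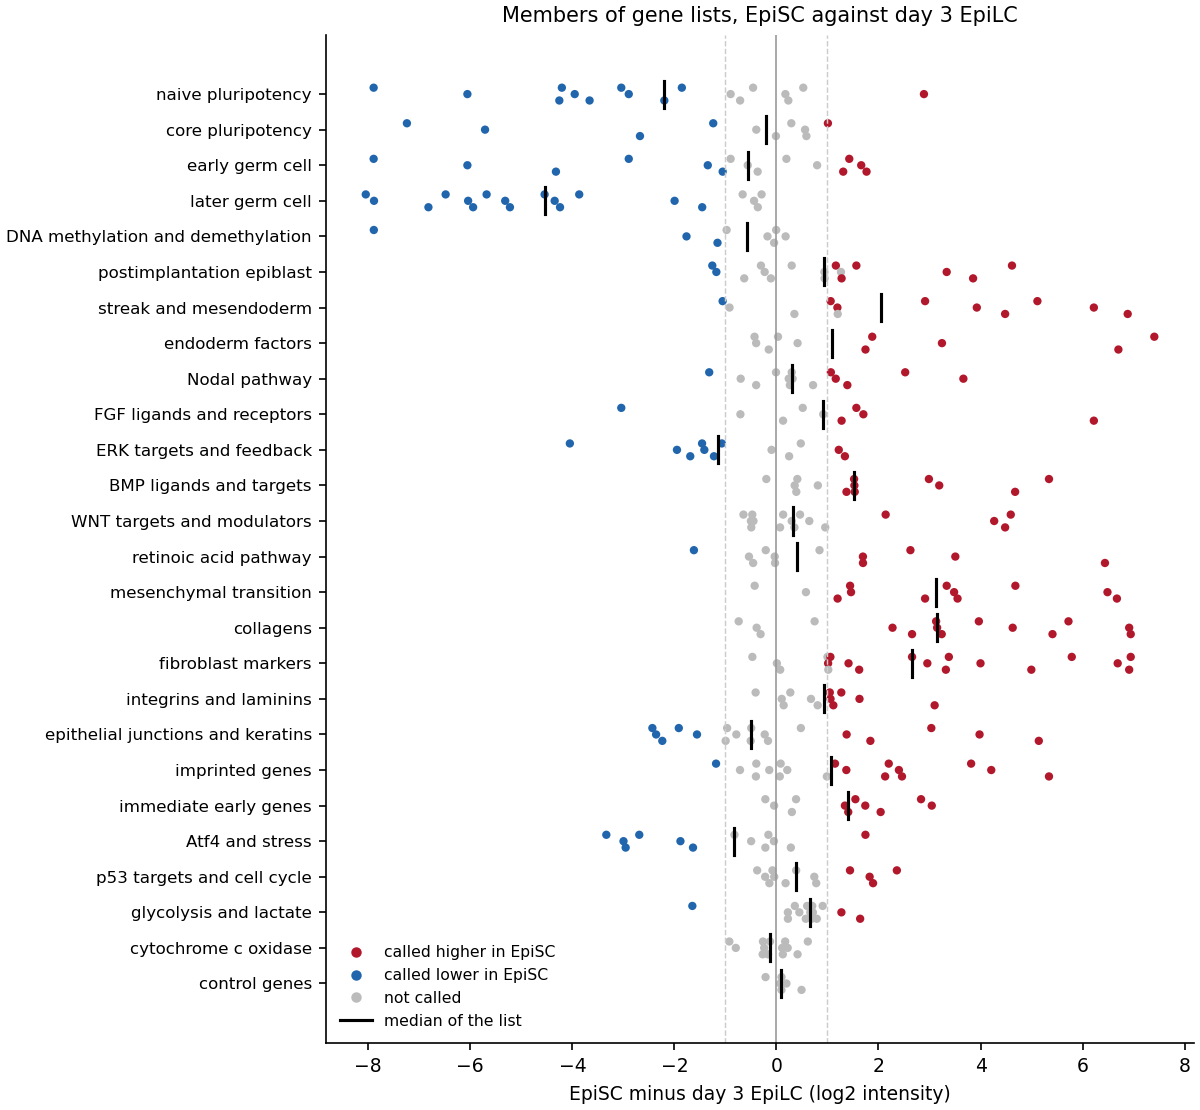
EpiSC minus day 3 EpiLC (log2) for the tested members of 26 gene lists. Red points were called higher in EpiSCs, blue points lower, grey points not called, and black bars mark each list's median, from -4.54 for later germ cell genes to 3.15 for collagens.

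Genes of the primitive streak and of mesendoderm were mostly higher in EpiSCs. Of 12 tested members, 8 were higher (13.7% over all genes) and 1 (Mesp2, below the filter level in both groups) lower (6.59%), with a median of 2.06. Between days 2 and 3, 0 were called (4.26% over all genes). With the floor at the 40th percentile the median was 1.12, with 7 higher and 0 lower, and without the filter on dim genes it was 1.20. Cer1, a secreted antagonist of Nodal, BMP and WNT, read 1 on both day 3 arrays and 530.2 and 463 in EpiSCs. Fgf8, a ligand needed for cells to leave the streak, read 5.67 and 13 at day 3 and 658 and 624 in EpiSCs, and Lhx1, a LIM factor of the anterior mesendoderm, 4.65 and 1 at day 3 and 155 and 151 in EpiSCs. All 3 were below the filter level on every ESC and EpiLC array. Gsc (goosecoid), a homeobox factor of the organizer, read 2.95 and 2.97 at day 3 and 59.9 and 67.9 in EpiSCs. Eomes, a T-box factor of the streak, was called (1.06 ± 0.37), but the call was lost whichever of the 4 arrays was omitted, at an adjusted p of 0.088 to 0.15. Mixl1 was too dim to be tested.

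Endoderm factors went the same way, with 5 of 10 higher (13.7% over all genes) and 0 lower (6.59%). Foxa1, a pioneer factor of endoderm, read 1 on both day 3 arrays and 701 and 722 in EpiSCs, at least 25.3-fold higher. Foxa2, its relative in endoderm and node, read 9.94 and 4.87 at day 3 and 772 and 679 in EpiSCs, at least 25.8-fold higher. Both were near background in EpiLCs. Sox17, a factor of definitive endoderm, read 29.3 and 28.2 at day 3 and 93.5 and 99.3 in EpiSCs. Gata4 fell on the third day (-2.17 ± 0.24), from 67.9 and 68.5 to 14.6 and 15.8, with EpiSCs at 56.1 and 55.7; neither difference was called when its probe sets were averaged. Markers of visceral endoderm, the extraembryonic neighbour of the epiblast, had few calls: of 10 tested, 1 (Rbp4) was higher and 2 (Apoe and Amn) lower. In EpiSCs, 5 of 6 defining markers (the list of Afp, Ttr, Apoa1, Apob, Amn and Cubn) were below the filter level. The summed intensities of these 6 were 106 to 108 in EpiSCs, against 213 to 226 at day 3. Hesx1, Sox1, Irx3 and Zic1, early neural factors, were among 5 of 9 such genes higher in EpiSCs. Sox1 read 25.5 and 24.9 at day 3 and 502 and 490.2 in EpiSCs, although its 2 probe sets differed in direction, at 4.30 and -2.10. Of other lineages, 3 of 8 trophoblast markers were higher (Eomes, Plac1 and Krt7) and 0 lower, and endothelial and blood markers had 2 of 9 higher and 1 lower. The call of Eomes is the one lost whichever of the 4 arrays was omitted. The small counts of visceral endoderm, endothelial and blood markers were not far from the shares over all genes (13.7% higher and 6.59% lower).

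Among signalling pathways, BMP ligands and targets differed in 1 direction, with 8 of 13 higher in EpiSCs (13.7% over all genes) and 0 lower (6.59%, median 1.52 for the list). The ligand Bmp2 read 12.1 and 6.29 at day 3 and 333 and 376 in EpiSCs, and the ligand Bmp4 53.5 and 43.9 at day 3 and 377 and 393 in EpiSCs. Id1, a direct target, read 71.4 and 77 at day 3 and 689 and 664 in EpiSCs, and Id2, Id3 and Id4 were higher as well. In the Nodal pathway the inhibitors and modifiers differed, and the ligand did so by less than a fold of 2: Nodal read 619 and 620.0 at day 3 and 766 and 722 in EpiSCs (interval 0.12 to 0.41), while Lefty1 was 5.75-fold and Lefty2 12.7-fold higher. Furin and Pcsk6, proteases that cut the Nodal precursor, went opposite ways, Furin by 1.39 ± 0.14 and Pcsk6 by -1.32 ± 0.25. In all, 5 of 14 members were higher and 1 lower; with the mean of the probe sets of each gene, 3 were higher.

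FGF ligands differed in both directions. Fgf4, the ligand of naive and formative cells, read 581 and 714 at day 3 and 78 and 78.6 in EpiSCs, 8.23-fold lower, while Fgf5, Fgf8, Fgf15 and the receptor Fgfr3 were higher, 4 of 9 in all. The call of Fgf15 was likewise lost with each omission, at an adjusted p of 0.077 to 0.14. Downstream, 7 of 12 targets and feedback genes of the ERK kinases were lower in EpiSCs and 2 higher (median -1.15). Dusp6, the phosphatase that removes ERK activity, read 2392 and 2426 at day 2, 3724 and 3872 at day 3 and 957 and 1010.0 in EpiSCs. Etv4, an ETS factor, read 251 and 259 at day 3 and 19.4 and 12.2 in EpiSCs, and Spry1, Spry2 and Spry4, feedback inhibitors, were all lower in EpiSCs. Egr1 and Dusp4 were the 2 that were higher.

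The immediate early genes, which respond to serum and to many other stimuli, had 7 of 11 members higher in EpiSCs and 0 lower (median 1.41). Fos read 83.6 and 61.5 at day 3 and 584 and 599 in EpiSCs, Jun 199 and 172 at day 3 and 716 and 809 in EpiSCs, and Ier3 106 and 89.7 at day 3 and 707 and 686 in EpiSCs. WNT genes had 4 of 16 higher (13.7% over all genes) and 0 lower (6.59%). Dkk1, Frzb and Sfrp1 are secreted inhibitors of WNT and Sp5 is a target. Dkk1 read 13.4 and 14.9 at day 3 and 349 and 332 in EpiSCs, and Sfrp1 304 and 313 at day 3 and 1371 and 1349 in EpiSCs. Of 12 retinoic acid genes 5 were higher and 1 lower. Cyp26a1, the enzyme that degrades retinoic acid, read 8.12 and 9.66 at day 3 and 749 and 787 in EpiSCs. Aldh1a2, which makes it, read 21.3 and 19.6 at day 3 and 126 and 127 in EpiSCs, and Crabp1, which binds it, 211 and 231 at day 3 and 2493 and 2519 in EpiSCs.

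Mesenchymal genes and extracellular matrix were also higher in EpiSCs. Of 12 genes of the epithelial to mesenchymal transition, 10 were higher and 0 lower (median 3.12). Vim (vimentin) read 921 and 953 at day 3 and 10500.0 and 10439.8 in EpiSCs, Cdh2 (N-cadherin) 140.2 and 113 at day 3 and 1143 and 1416 in EpiSCs, and Zeb1, a repressor of E-cadherin, 20 and 18.2 at day 3 and 491 and 489 in EpiSCs. Cdh1 (E-cadherin) itself, at 5382 and 5221 at day 3 against 2654 and 2665 in EpiSCs, lay at the edge of the fold threshold (-0.995) and was called after either rescaling of the arrays. Of 15 collagens, 11 were higher and 0 lower (median 3.15). Col1a2, a chain of fibrillar collagen, read 24.6 and 31.5 at day 3 and 3510.3 and 3209.7 in EpiSCs, and Col3a1, another, 11.7 and 8.67 at day 3 and 1168 and 1316 in EpiSCs. The basement membrane collagens Col4a1 and Col4a2 were higher as well. Of 12 integrins and laminins 6 were higher and 0 lower; with the mean of the probe sets of each gene 2 were.

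Fibroblast markers were also higher: 14 of 19 tested were higher in EpiSCs and 0 lower (median 2.66). This list is not separate from the collagens, because Col1a1, Col1a2 and Col3a1 are on both and among the defining markers too. Of the 12 defining markers, all 12 were on the array, 0 had both EpiSC arrays below the filter level, 5 had both day 3 arrays below it and 9 were higher. Their summed intensity was 6971 to 7074 in EpiSCs and 578 to 580 at day 3. In EpiSCs the larger part of this sum came from Col1a2 and Col3a1. Postn, a secreted matrix protein, read 1 on both day 3 arrays and 449.6 and 416 in EpiSCs. Tgfbi, another of the mesenchymal list, read 10.5 and 11.5 at day 3 and 1117 and 1125 in EpiSCs. Both were below the filter level at day 3. Lum (lumican) read 5.72 and 6.65 at day 3 and 329.8 and 352 in EpiSCs, and the receptor Pdgfra 10.8 and 9.64 at day 3 and 155 and 172 in EpiSCs. Thy1, a surface marker of fibroblasts, did not follow (167 and 165 at day 3, 153 and 182 in EpiSCs), and Dcn (decorin) was not called (1.00 ± 0.61), although it was called higher in 3 alternatives: a floor at the 40th percentile, the mean of probe sets, and only the arrays compared (adjusted p = 0.025, 0.01 and 0.00023). The part of fibroblast markers in the differences of collagens and mesenchymal genes was not tested.

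Epithelial genes were split. Of 18 members, 6 rose on the third day (1.48% over all genes) and 0 fell (2.78%). In EpiSCs 5 were higher than at day 3 (13.7% over all genes) and 5 lower (6.59%). Keratins and desmosomal genes (Krt7, Krt8, Krt19, Dsp and Dsc2) were the higher ones. Krt19 read 23.9 and 28.1 at day 2, 72.9 and 59.4 at day 3 and 2403 and 2247 in EpiSCs, and Dsp (desmoplakin) 51.4 and 60.8 at day 2, 142 and 109 at day 3 and 1957 and 1964 in EpiSCs. The rise of Krt19 was lost without day 2 replicate 1 or day 3 replicate 1, and that of Dsp without day 3 replicate 1 and with the mean of probe sets (0.64, adjusted p = 0.2). Tight junction and polarity genes (Cldn4, Cldn7, Ocln, Tjp3 and Crb3) were the lower ones. Crb3, an apical polarity protein, read 571 and 659 at day 3 and 112 and 116 in EpiSCs, and the claudin Cldn7 2261 and 2503 at day 3 and 508 and 501 in EpiSCs. Cldn4, another claudin, read 782 and 792 at day 2, 1469 and 1742 at day 3 and 313 and 311 in EpiSCs. In these 3 junction genes both day 3 arrays lay above both EpiSC arrays. The rise of Cldn4 on the third day was 0.90 in size, and so not called, without day 3 EpiLC replicate 2.

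Of 18 imprinted genes, which are expressed from 1 parental copy, 9 were higher in EpiSCs and 1 (Phlda2) lower. Igf2, a fetal growth factor, read 62.7 and 74.8 at day 3 and 2720.0 and 2834 in EpiSCs. Plagl1 (Zac1), a zinc-finger factor, read 4303 and 4277 in ESCs, 96.3 and 94.4 at day 3 and 1739 and 1792 in EpiSCs, so the EpiLCs lay far below both other cell types. Cdkn1c (p57), an inhibitor of the cell cycle, read 469 and 431 at day 3 and 2706 and 2265 in EpiSCs, and Nnat, a membrane protein of neurons, 160.3 and 144 at day 3 and 2226 and 2051 in EpiSCs.

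Of 13 genes of the Atf4 response to amino acid and endoplasmic reticulum stress, 6 were lower in EpiSCs and 1 higher. Ddit3 (Chop), a factor of that response, read 278 and 311 at day 2, 1229.5 and 1366 at day 3 and 175 and 151 in EpiSCs, so it was highest at day 3. Trib3, its target, read 1803 and 1933 at day 3 and 201 and 171 in EpiSCs. Of 13 p53 targets and cell cycle genes 4 were higher and 0 lower: the inhibitors Cdkn1a (p21) and Cdkn2b (p15) by 1.83 ± 0.16 and 2.36 ± 0.12, and the cyclins Ccnd1 and Ccnd2 by 1.44 ± 0.18 and 1.89 ± 0.27. Of 15 genes of glycolysis and lactate transport 2 were higher and 1 lower, near the shares over all genes (13.7% and 6.59%): the glucose carrier Slc2a1 read 4039 and 3968 at day 3 and 9747 and 9604 in EpiSCs, the lactate carrier Slc16a3 368 and 395 at day 3 and 1276 and 1108 in EpiSCs, and Pfkm, the muscle form of phosphofructokinase, 932 and 1052 at day 3 and 307 and 325 in EpiSCs. None of 13 subunits of cytochrome c oxidase was called, including Cox7a1 (0.62 ± 0.12).

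Large increases in EpiSCs outside these groups included Aplnr, the receptor of apelin, which read 1 on both day 3 arrays and 1191 and 1183 in EpiSCs (at least 42.2-fold higher), and Klhl4, at 1.62 and 4.18 at day 3 and 381 and 473 in EpiSCs. Slit2, a guidance ligand, read 327 and 338 in ESCs, 14.5 and 7.99 at day 3 and 829 and 949.5 in EpiSCs, and Cdh11, a cadherin of mesenchymal cells, 1 and 1.17 at day 3 and 365 and 388 in EpiSCs. Aplnr and Cdh11 were at or near the lowest value of the table on all 8 ESC and EpiLC arrays, and Slit2 was below the filter level on all 6 EpiLC arrays. Of the 1898 genes that separate EpiSCs from day 2 EpiLCs on amplified arrays, 1409 (74.2%) were called in that direction against day 2 on unamplified arrays. Against day 1 it was 1366 (72.0%) and against day 3 1257 (66.2%). These comparisons share the EpiSC arrays, and the genes were chosen for a difference from day 2, which favours agreement at day 2.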

How the data were processed

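RNA of all 24 samples was hybridised to mouse expression arrays. The deposited table holds 1 linear intensity per probe set and array, processed by the authors with software and a normalization not given in the sources used here; the smallest printed value is 1. Array medians were 41.1 to 49.2 on the unamplified arrays and 36.2 to 40 on the amplified ones, and no rescaling was applied. The number of arrays, 2 a group, limits the precision. Of 45101 probe sets, 34945 had 1 gene symbol in the platform annotation, 932 had several and 9160 had none, and 64 were controls. Of the 34945, 34741 matched RefSeq (GRCm38.p6). Each gene was represented by its brightest probe set (mean log2 over all arrays).

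Values were raised to 4.2, taken to log2 and fitted with limma 3.58.1 in R 4.3.3: 1 mean for each of the 6 groups of 12 unamplified arrays, with eBayes (trend on intensity, 6 residual degrees of freedom); the amplified arrays were fitted separately. Tests were two-sided, with Benjamini-Hochberg adjustment over all 14934 genes (15608 amplified). Tested on simulated data for EpiSC minus day 3, the fit called 88 of 100 genes shifted by 1.5 (log2) and 96 of 100 shifted by 3, with 3 false calls among 14934 genes. Distances, counts and motifs were computed in Python 3.11.15.

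Genes, lists and members were chosen with earlier results of these data known. The rule named the 12 largest increases and the 12 largest decreases, for each list that had 3 or more calls at most 4 of them, the 6 largest changes toward and the 6 away from EpiSCs, and a fixed set. Other genes are named to spell out a list's members or counts, or, as with Krt18, Tagln, Tbx3, Tfcp2l1, Cldn4, Cldn7 and Pdgfra, after their values were seen. Alternatives varied the floor, filter, scaling, choice of probe set, samples in the fit, blocks, trend, fold threshold and each array left out.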

Additional observations from a re-analysis of the deposited data

How the results depend on the processing

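Replicate numbers were not treated as pairs in the main fit. Residuals of equally numbered arrays correlated above 0.1 in 3 of 15 pairs of groups (median 0.054, highest 0.191). For day 3 EpiLCs and EpiSCs the correlation was 0.044. Such values cannot tell whether the samples were paired. With the replicate number as a block, EpiSC minus day 3 gave 3046 calls, EpiSC minus day 1 3595, EpiSC minus day 2 2824, day 3 minus day 2 640, and the share of separating genes that moved toward EpiSCs was 6.23%. Without the fold threshold these counts were 8087, 8624, 7816 and 3844, and the share was 25.0%. The share was 10.6% when only the arrays compared were fitted, where 454 genes were chosen, and 5.36% for genes chosen by EpiSC minus ESC; leaving out 1 array gave 4.02% to 7.82%. The count of genes moving away was 17 with a floor at the 40th percentile, 25 with the mean of probe sets and 12 with only the arrays compared. The RMS distance from EpiSCs to day 3 was 0.911 with that floor, 1.10 without the filter and 1.09 with the mean of probe sets, and days 2 and 3 stayed within 0.0051 of each other in these and in both rescalings. The cause of these shifts was not tested. Leaving out 1 array gave 2853 to 3121 calls for EpiSC minus day 3, 3487 to 3596 for day 1, 2625 to 2799 for day 2 and 543 to 707 for day 3 minus day 2. Quantile normalization lowered the share of higher genes among the calls from 67.5% to 59.3% for EpiSC minus day 3 (1767 higher, 1212 lower) and from 67.5% to 56.2% for EpiSC minus day 1. Of 127 called genes named by the rule, 114 kept their call in all 14 alternatives, 13 lost it in at least 1 and 0 changed sign. Dropping the fold threshold could not lose a call. The fits without the filter, without the trend, with the replicate block or of only the arrays compared left the log2 differences unchanged, so no sign could change there. Among lists, endoderm factors had 3 in place of 5 higher members with the raised floor, and Hox genes 4 in place of 1 without the filter.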

Other observations

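Some smaller lists and single genes belong to none of the comparisons above. Of 9 tested Hox genes, which pattern the body axis, 1 was higher in EpiSCs than in day 3 EpiLCs (Hoxb2, 52.8 and 48.9 against 14.5 and 1) and 1 lower (Hoxa9, 19.4 and 17.8 against 30.8 and 56.7). Both counts are near the shares over all genes (13.7% and 6.59%). Tek, a receptor of endothelial cells, declined through the course, from 228 and 225 in ESCs to 64.5 and 75.6 at day 3, and read 10.8 and 16.04 in EpiSCs. Flt1, another endothelial receptor, read 29.3 and 11.8 at day 3 and 109 and 147 in EpiSCs. Rarg, a receptor of retinoic acid, read 268 and 243 at day 3 and 85.4 and 80.8 in EpiSCs. Ddit4, a stress-induced inhibitor of mTOR, was the member of the Atf4 list that was higher in EpiSCs, at 6582 and 6654 against 1968 and 1984 at day 3 and 4498 and 4105 at day 2.

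Chromosomes differed in their median of EpiSC minus day 3. Over 20 chromosomes the lowest median was that of chromosome 16 (-0.13, 493 genes, 53 called higher and 50 lower), and the highest that of chromosome 13 (0.15, 547 genes, 93 higher and 29 lower). For genes brighter than 200 the medians were -0.21 on chromosome 16 (257 genes) and 0.19 on chromosome 13 (249 genes). Against ESCs the same bright genes of chromosome 16 had a median of -0.25 in EpiSCs and -0.02 at day 3. Of the Y-linked genes, Kdm5d and Uty were called higher in EpiSCs and Eif2s3y was not called. Kdm5d read 69.5 and 57.4 at day 3 and 295 and 342 in EpiSCs. Uty read 139 and 126 at day 3 and 252 and 304 in EpiSCs, and Eif2s3y 1237 and 1135 at day 3 and 1255 and 1359 in EpiSCs. These calls depended on the processing. Of the 4 tested sex-linked genes, 1 was called higher after either rescaling of the arrays, and none with the mean of probe sets.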
